A study of Homo sapiens with 12 samples.

Results

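The histone genes followed here were the 53 genes with a symbol beginning H1-, H2AC, H2AZ, H2BC, H3C, H3-3 or H4C, or the older HIST1, HIST2, H2AF and H3F3, that had a probe set annotated to them alone, out of 19775 genes with such a probe set. Each gene was read by its probe set of highest mean intensity. The members comprised 43 replication-dependent genes (6 H1, 8 H2A, 14 H2B, 7 H3 and 8 H4 genes), of which 40 lie on chromosome 6, the 4 replication-independent variants H2AZ1, H2AZ2, H3-3A and H1-10, the germ-line linker genes H1-7 and H1-8, 3 pseudogenes (H1-9P, H2AC5P and H4C10P) and the antisense RNA H1-10-AS1. The variant H3-3B had no probe set of its own and was not analysed here.

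Cells of OCI-Ly7, an established human diffuse large B-cell lymphoma line, were exposed for 24 hours to 1 μM PLS-123, 10 μM ibrutinib, 1 μM ibrutinib or vehicle. PLS-123 and ibrutinib are both covalent inhibitors of Btk, the kinase that relays signals from the B-cell receptor, and the question put to these arrays was which transcripts each compound altered. All 4 groups, vehicle included, came from this single line. Each group had 3 arrays, here called A, B and C, and the sources used here do not say whether these were separate cultures, so the p-values measure only the spread between these arrays.

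Nucleosomes are built from the core histones H2A, H2B, H3 and H4, and a linker histone, H1, binds the DNA between them. Most histone protein is supplied by clustered, intronless genes whose transcription rises in S phase, and whose mRNAs end in a stem-loop that is bound by SLBP and not in a poly(A) tail. Variants such as H2A.Z and H3.3, and the linker histone H1-10, come from solitary genes that are transcribed outside S phase as well and yield polyadenylated mRNA. Standard labelling for these arrays starts from an oligo(dT) primer, so that a signal for a clustered histone gene depends on transcripts that the primer can reach, including the small share that is polyadenylated. How the share of polyadenylated transcripts moved was not measured.

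The promoters of the core genes H2AC17, H2BC3, H3C2 and H4C13, which rose with PLS-123, and of the linker genes H1-2 and H1-10, which fell, are shown so that the elements shared within each class can be read beside the changes. The windows span 250 bases before to 50 bases after the RefSeq start site (build GRCh38.p14) and all lie on the minus strand: H2AC17 at chr6:27893136-27893435, H2BC3 at chr6:26043664-26043963, H3C2 at chr6:26032050-26032349, H4C13 at chr6:27873485-27873784, H1-2 at chr6:26056421-26056720 and H1-10 at chr3:129316237-129316536. Capitals mark matches on either strand to the TATA box TATAAA, the CCAAT box CCAAT, the octamer ATTTGCAT and the linker histone element AAACACA, and no marked matches overlap.
H2AC17: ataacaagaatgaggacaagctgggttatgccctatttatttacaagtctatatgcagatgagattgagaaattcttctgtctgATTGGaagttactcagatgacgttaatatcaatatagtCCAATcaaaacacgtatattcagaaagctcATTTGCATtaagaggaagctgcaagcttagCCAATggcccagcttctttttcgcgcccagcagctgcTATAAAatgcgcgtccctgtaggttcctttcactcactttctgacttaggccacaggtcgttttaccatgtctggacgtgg
H2BC3: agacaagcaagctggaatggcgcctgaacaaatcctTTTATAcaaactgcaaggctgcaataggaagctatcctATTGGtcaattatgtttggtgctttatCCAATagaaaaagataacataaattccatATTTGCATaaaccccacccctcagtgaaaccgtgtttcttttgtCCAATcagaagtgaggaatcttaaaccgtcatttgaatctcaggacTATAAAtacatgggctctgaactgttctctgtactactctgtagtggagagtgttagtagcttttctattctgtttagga
H3C2: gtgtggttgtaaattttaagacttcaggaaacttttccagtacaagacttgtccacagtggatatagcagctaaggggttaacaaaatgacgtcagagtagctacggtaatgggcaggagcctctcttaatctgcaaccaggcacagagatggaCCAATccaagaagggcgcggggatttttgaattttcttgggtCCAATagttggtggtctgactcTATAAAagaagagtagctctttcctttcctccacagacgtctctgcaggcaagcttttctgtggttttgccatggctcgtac
H4C13: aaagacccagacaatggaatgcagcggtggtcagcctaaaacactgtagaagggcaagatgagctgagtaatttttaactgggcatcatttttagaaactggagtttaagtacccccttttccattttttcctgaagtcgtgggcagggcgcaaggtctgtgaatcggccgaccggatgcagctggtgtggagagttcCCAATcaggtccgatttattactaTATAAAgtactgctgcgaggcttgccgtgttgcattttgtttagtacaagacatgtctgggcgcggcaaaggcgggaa
H1-2: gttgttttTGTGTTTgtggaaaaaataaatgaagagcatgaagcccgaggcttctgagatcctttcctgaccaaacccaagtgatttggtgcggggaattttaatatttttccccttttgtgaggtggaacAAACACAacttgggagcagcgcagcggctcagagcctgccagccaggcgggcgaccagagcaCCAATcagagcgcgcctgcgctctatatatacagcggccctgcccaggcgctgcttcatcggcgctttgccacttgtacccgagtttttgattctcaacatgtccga
H1-10: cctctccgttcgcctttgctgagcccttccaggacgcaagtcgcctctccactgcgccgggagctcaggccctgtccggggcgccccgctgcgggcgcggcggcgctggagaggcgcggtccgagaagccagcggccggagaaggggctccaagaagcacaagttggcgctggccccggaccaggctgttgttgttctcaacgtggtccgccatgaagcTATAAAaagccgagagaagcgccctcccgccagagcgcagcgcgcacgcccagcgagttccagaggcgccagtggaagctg

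Such a window was given for 46 of the 53 members. The TATAAA match lay at positions -31 to -26 in H2AC17 and in H1-10 alike, counted from the start site. TATAAA was present in 24 of 34 core histone windows, against 12% of all 27305 windows of the same length, and CCAAT in 29 of 34, against 35.7%. The octamer ATTTGCAT divided the classes, with 6 of 8 H2A and 10 of 13 H2B windows, 0 of 6 H3 and 0 of 7 H4 windows, and 1.8% of all windows. AAACACA was found in 6 of 6 H1 windows and in 0 of the 34 core windows, against 5.76% of all windows. Among the core genes that were higher with PLS-123, 8 of 14 windows held TATAAA, 13 held CCAAT and 6 held the octamer, against 16, 16 and 10 of the 20 windows of the other core genes. Matches are a description of the letters only, and no match says only that these letters are not in the window.

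Levels are given below as log2 of the intensity after robust multi-array averaging (RMA), and a gene was called changed at an adjusted p under 0.05 in limma with Benjamini-Hochberg adjustment over 54613 probe sets. Fold changes are given on the log2 scale with the standard error (SE) of the fit. The median of all probe sets lay between 3.83 and 3.89 on each array. All 5 measured B-lineage markers stood above the median of all probe sets (log2 3.87), as did 1 of 5 T and NK cell, 1 of 5 myeloid and 2 of 5 stromal and epithelial markers. The summed intensity of the B-lineage markers was 9821 to 10411 after PLS-123, 10448 to 10678 after 10 μM ibrutinib, 14029 to 14868 after 1 μM ibrutinib and 13942 to 14644 after vehicle, and that of the T and NK cell markers was 50.5 to 58.5 after PLS-123 and 48.7 to 51.3 after vehicle. The means of MS4A1, CD79A, PAX5 and BCL6 were lower after PLS-123 than after vehicle, and that of CD79B was higher (11.49 against 11.18). The myeloid sums (42.1 to 46.7 after PLS-123, 45.3 to 47.4 after vehicle) and the stromal and epithelial sums (123.5 to 157.0 after PLS-123, 112.9 to 127.6 after vehicle) overlapped between these groups. The ACTB 3′ probe set exceeded its 5′ probe set by 2.93 ± 0.20 after PLS-123, 2.74 ± 0.08 after 10 μM ibrutinib, 2.67 ± 0.18 after 1 μM ibrutinib and 2.64 ± 0.04 after vehicle (log2, SD, n = 3 each). The GAPDH 3′ probe set exceeded its 5′ probe set by 0.45 ± 0.02 after PLS-123, 0.39 ± 0.01 after 10 μM ibrutinib, 0.27 ± 0.03 after 1 μM ibrutinib and 0.31 ± 0.04 after vehicle, with every PLS-123 and 10 μM ibrutinib array above every vehicle array. Both 3′ to 5′ differences, which are larger where RNA is less intact, were largest after PLS-123. The part of the GAPDH difference in the results was not tested.

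With 1 μM PLS-123, core histone genes of all 4 classes rose and 4 histone genes fell. Of the 43 replication-dependent genes, 15 were higher and 3 lower than with vehicle, where 7.54% and 12.8% of all genes with their own probe set were called higher and lower. Every one of the 15 was a core histone gene, as were 37 of the 43 genes. The 15 divided into 4 of 8 H2A, 4 of 14 H2B, 4 of 7 H3 and 3 of 8 H4 genes. The genes that fell were H1-2, H2BC11 and H2BC21, and, among the variants, H1-10. The median change over the 43 genes was 0.19 on the log2 scale, with 34 positive and 9 negative, against -0.04 over all genes. Read array by array against the vehicle mean, the median of the 43 genes was 0.23, 0.27 and 0.20 on the PLS-123 arrays, 0.19, 0.12 and 0.14 on the 10 μM ibrutinib arrays, -0.09, -0.02 and 0.00 on the 1 μM ibrutinib arrays, and at most 0.02 on a vehicle array. The vehicle arrays make up that mean, so their small values follow from the calculation and do not measure their spread. In these bulk samples, fewer cells that express a gene and less RNA per cell cannot be told apart.

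**Figure D1:**
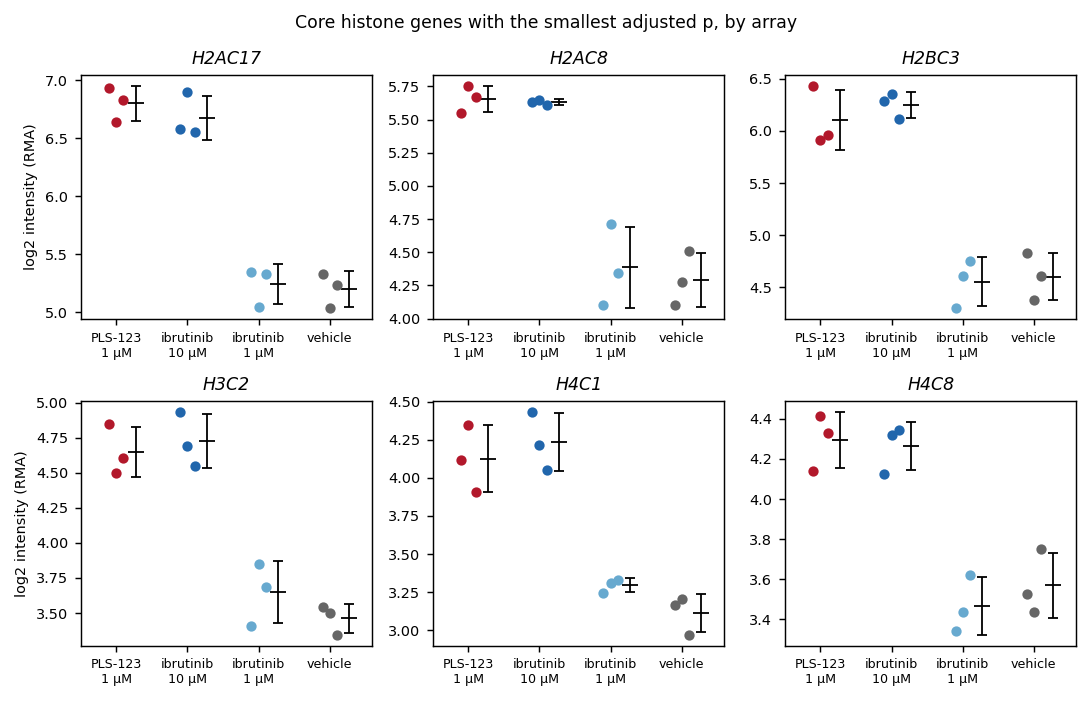
Level of the core histone genes H2AC17, H2AC8, H2BC3, H3C2, H4C1 and H4C8 (log2 RMA intensity, vertical axis, which does not start at 0), with a point for each array and a black mark with bars for the group mean and SD (n = 3) of PLS-123, 10 μM ibrutinib, 1 μM ibrutinib and vehicle. The PLS-123 and 10 μM ibrutinib arrays of H2AC17 lie between 6.55 and 6.93, above every 1 μM ibrutinib and vehicle array, which lie between 5.04 and 5.35.

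H2AC17 had the largest change of any member with PLS-123. The gene, which encodes a core H2A, read 6.93, 6.64 and 6.83 after PLS-123, 6.58, 6.90 and 6.55 after 10 μM ibrutinib, 5.35, 5.04 and 5.33 after 1 μM ibrutinib and 5.33, 5.04 and 5.23 after vehicle. The PLS-123 and 10 μM ibrutinib arrays stood apart from the other 6 without overlap, and the 1 μM ibrutinib arrays lay among the vehicle arrays. Its change was 1.60 ± 0.12 (SE), or 3.03-fold, with PLS-123 (adjusted p = 1.01e-06) and 1.48, or 2.78-fold, with 10 μM ibrutinib (adjusted p = 2.55e-06). H2AC8, another core H2A gene, read 5.55, 5.75 and 5.67 after PLS-123, 5.64, 5.65 and 5.61 after 10 μM ibrutinib, 4.10, 4.71 and 4.35 after 1 μM ibrutinib and 4.10, 4.27 and 4.51 after vehicle. It was 2.58-fold higher with PLS-123 (1.36 ± 0.14, adjusted p = 1.28e-05) and 2.53-fold higher with 10 μM ibrutinib (1.34, adjusted p = 1.74e-05), again with no overlap with vehicle.

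H2AC14 and H2AC16 moved by less. H2AC14 read 7.63, 7.74 and 7.63 after PLS-123, 7.66, 7.74 and 7.77 after 10 μM ibrutinib, 6.84, 7.03 and 7.08 after 1 μM ibrutinib and 7.09, 7.17 and 7.22 after vehicle. The PLS-123 and 10 μM ibrutinib arrays cleared all vehicle arrays, and the 1 μM ibrutinib arrays lay below them with a mean change of -0.18, which fell short of a call (adjusted p = 0.92). The rise was 0.51 ± 0.09 with PLS-123 (adjusted p = 0.000971) and 0.56 with 10 μM ibrutinib (adjusted p = 0.000574). H2AC16 was at 3.31, 3.51 and 3.36 after PLS-123, 4.13, 3.62 and 3.80 after 10 μM ibrutinib, 3.06, 2.98 and 3.0 after 1 μM ibrutinib and 2.74, 2.99 and 2.87 after vehicle, with a mean over the arrays under the median of all probe sets, and both higher groups were clear of vehicle. It rose by 0.53 ± 0.12 with PLS-123 (adjusted p = 0.00723) and 1.98-fold with 10 μM ibrutinib (adjusted p = 7e-05). The other 4 H2A genes did not pass the test with either, and their changes with PLS-123 were 0.19 for H2AC4, -0.01 for H2AC15, -0.23 for H2AC25 and -0.32 for H2AC6.

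Among the 14 H2B genes, H2BC3 changed most. It read 6.43, 5.91 and 5.96 after PLS-123, 6.29, 6.36 and 6.12 after 10 μM ibrutinib, 4.30, 4.61 and 4.76 after 1 μM ibrutinib and 4.82, 4.38 and 4.61 after vehicle. Every PLS-123 and 10 μM ibrutinib array exceeded every other array, by 2.83-fold in the mean against vehicle with PLS-123 (1.5 ± 0.16, adjusted p = 1.7e-05) and by 3.14-fold with 10 μM ibrutinib (1.65, adjusted p = 8e-06). H2BC5 read 7.37, 7.33 and 7.26 after PLS-123, 7.42, 7.55 and 7.54 after 10 μM ibrutinib, 6.97, 6.89 and 7.05 after 1 μM ibrutinib and 6.91, 6.96 and 6.85 after vehicle. Without overlap with vehicle, the rise of H2BC5 was 0.41 ± 0.08 with PLS-123 (adjusted p = 0.0026) and 0.60 with 10 μM ibrutinib (adjusted p = 0.000179). A second, dimmer probe set annotated to H2BC5 alone gave -0.06 with PLS-123 (adjusted p = 0.747) and 0.00 with 10 μM ibrutinib, so that the call for this gene stood on 1 of its probe sets.

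H2BC9 and H2BC15 were called on smaller rises. H2BC9 read 5.42, 5.34 and 5.17 after PLS-123, 5.09, 5.38 and 5.50 after 10 μM ibrutinib, 4.68, 4.85 and 4.94 after 1 μM ibrutinib and 4.60, 4.93 and 5.01 after vehicle, a rise of 0.46 ± 0.13 with PLS-123 (adjusted p = 0.0264) and 0.47 with 10 μM ibrutinib (adjusted p = 0.0333), with neither group overlapping vehicle. H2BC15 was at 4.13, 4.62 and 4.35 after PLS-123, 4.18, 4.0 and 4.0 after 10 μM ibrutinib, 3.68, 3.76 and 4.16 after 1 μM ibrutinib and 4.01, 3.81 and 3.80 after vehicle. Its rise with PLS-123 was 0.49 ± 0.14 (adjusted p = 0.026), and its change of 0.19 with 10 μM ibrutinib did not pass (adjusted p = 0.502). In the opposite direction, H2BC21, on chromosome 1, read 3.57, 3.55 and 3.26 after PLS-123, 3.52, 3.47 and 3.80 after 10 μM ibrutinib, 3.69, 3.79 and 3.79 after 1 μM ibrutinib and 4.06, 3.64 and 4.0 after vehicle. The PLS-123 arrays all lay below the vehicle arrays, with a change of -0.44 ± 0.13 (adjusted p = 0.0307). H2BC11 fell by 0.39 with PLS-123 (adjusted p = 0.0315), and both had means under the median of all probe sets. With 10 μM ibrutinib, the changes of -0.30 for H2BC21 (adjusted p = 0.184) and -0.23 for H2BC11 (adjusted p = 0.276) did not pass, while H2BC6 (0.30, adjusted p = 0.049) and H2BC12L (0.48, adjusted p = 0.00712), which did not pass with PLS-123 (0.15 and 0.16), did.

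All 7 H3 genes had a positive change with PLS-123, as did 8568 of all 19775 genes. The largest of the 7 was that of H3C2, which read 4.85, 4.50 and 4.60 after PLS-123, 4.93, 4.69 and 4.55 after 10 μM ibrutinib, 3.41, 3.85 and 3.69 after 1 μM ibrutinib and 3.54, 3.50 and 3.35 after vehicle. Neither of the first groups overlapped the others, and H3C2 rose 2.28-fold with PLS-123 (1.19 ± 0.13, adjusted p = 3.06e-05) and 2.4-fold with 10 μM ibrutinib (1.26, adjusted p = 2.02e-05). H3C8 read 6.08, 5.87 and 6.14 after PLS-123, 5.73, 5.62 and 5.87 after 10 μM ibrutinib, 5.45, 5.42 and 5.61 after 1 μM ibrutinib and 5.41, 5.60 and 5.55 after vehicle. Its rise passed with PLS-123 (0.51 ± 0.10, adjusted p = 0.00337) and not with 10 μM ibrutinib (0.21, adjusted p = 0.242), and the difference between these groups, 0.29, did not pass either (adjusted p = 0.199). H3C1 was at 2.73, 2.55 and 2.79 after PLS-123, 2.68, 2.65 and 2.89 after 10 μM ibrutinib, 2.10, 2.32 and 2.28 after 1 μM ibrutinib and 2.31, 2.42 and 2.09 after vehicle, all under the median of all probe sets. The treated arrays of H3C1 lay above vehicle by 0.41 ± 0.11 with PLS-123 (adjusted p = 0.0193) and by 0.46 with 10 μM ibrutinib (adjusted p = 0.0139).

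H3C3 read 4.91, 4.89 and 5.0 after PLS-123, 4.88, 4.81 and 4.93 after 10 μM ibrutinib, 4.20, 4.29 and 4.57 after 1 μM ibrutinib and 4.50, 4.65 and 4.71 after vehicle. Both higher groups cleared the vehicle arrays, but only the PLS-123 change passed (0.32 ± 0.10, adjusted p = 0.046, against 0.26 and adjusted p = 0.145 with 10 μM ibrutinib). H3C11, under the median of all probe sets on every array, was at 2.93, 3.09 and 3.18 after PLS-123, 2.78, 2.83 and 3.22 after 10 μM ibrutinib, 2.57, 2.46 and 2.78 after 1 μM ibrutinib and 2.91, 2.78 and 3.03 after vehicle. Its PLS-123 and 10 μM ibrutinib arrays overlapped vehicle, with a change of 0.16 with PLS-123 that did not pass (adjusted p = 0.455). Its 1 μM ibrutinib arrays all lay below the vehicle arrays, the highest of them by less than the rounding, at a change of -0.30 that was no call (adjusted p = 0.917). H3C6 and H3C7 had changes of 0.13 and 0.22 that did not pass.

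Of the 8 H4 genes, 3 rose with PLS-123 and 4 with 10 μM ibrutinib, where 7.54% and 6.71% of all genes were called higher. H4C1, whose mean over the arrays lay under the median of all probe sets, read 4.12, 4.35 and 3.91 after PLS-123, 4.43, 4.22 and 4.05 after 10 μM ibrutinib, 3.25, 3.31 and 3.33 after 1 μM ibrutinib and 3.17, 3.21 and 2.97 after vehicle. It was 2.02-fold higher with PLS-123 (1.01 ± 0.12, adjusted p = 6.01e-05) and 2.17-fold higher with 10 μM ibrutinib (1.12, adjusted p = 2.79e-05), and its 1 μM ibrutinib arrays also lay above all vehicle arrays, by 0.18, short of a call (adjusted p = 0.92). H4C8 was at 4.14, 4.41 and 4.33 after PLS-123, 4.12, 4.32 and 4.34 after 10 μM ibrutinib, 3.34, 3.43 and 3.62 after 1 μM ibrutinib and 3.53, 3.43 and 3.75 after vehicle. Again clear of vehicle, this was a 1.65-fold rise with PLS-123 (adjusted p = 0.000502) and a change of 0.69 with 10 μM ibrutinib (adjusted p = 0.000912). A second probe set of H4C8 gave -0.06 (adjusted p = 0.839) and -0.03 in the same comparisons.

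H4C13, with a mean just under the median of all probe sets, read 4.01, 3.98 and 4.10 after PLS-123, 4.23, 4.10 and 4.15 after 10 μM ibrutinib, 3.78, 3.64 and 3.79 after 1 μM ibrutinib and 3.39, 3.45 and 3.64 after vehicle. Its rise was 0.53 ± 0.09 with PLS-123 (adjusted p = 0.00089) and 0.67 with 10 μM ibrutinib (adjusted p = 0.000172), without overlap. H4C5 was at 5.05, 4.90 and 5.07 after PLS-123, 5.32, 5.56 and 5.69 after 10 μM ibrutinib, 4.47, 4.69 and 4.36 after 1 μM ibrutinib and 4.26, 4.96 and 4.41 after vehicle. The 10 μM ibrutinib arrays of H4C5 were the highest 3 of the 12, with a 1.97-fold rise (0.98 ± 0.16, adjusted p = 0.000947), whereas PLS-123 overlapped vehicle through 1 vehicle array (0.46, adjusted p = 0.0639). The PLS-123 minus 10 μM ibrutinib difference for H4C5 was -0.52 and did not pass (adjusted p = 0.16). Changes of H4C4, H4C7, H4C9 and H4C11 with PLS-123 lay between -0.11 and 0.23 and did not pass.

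**Figure D2:**
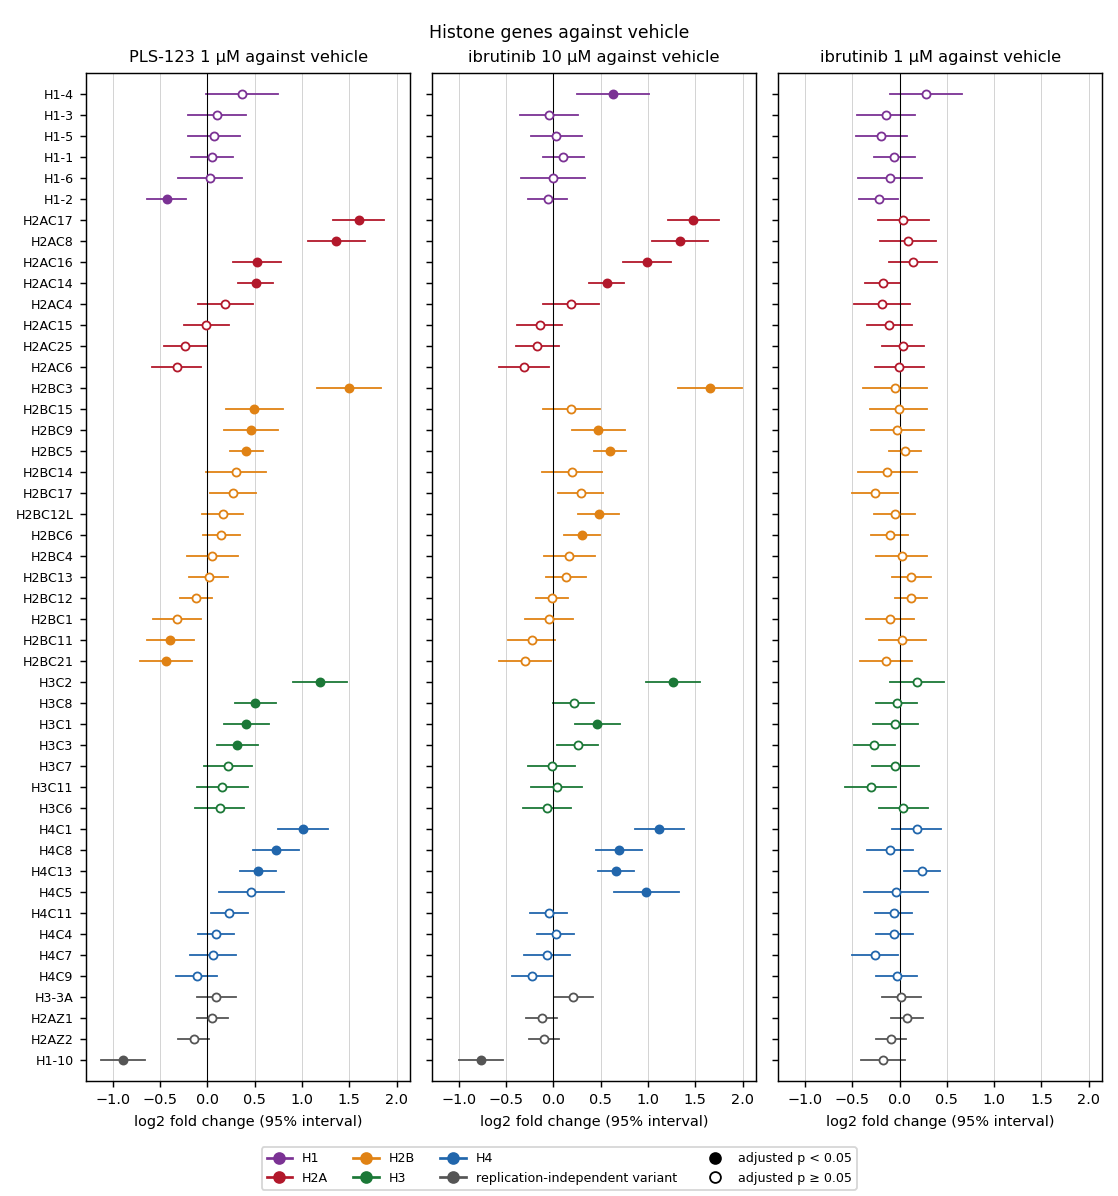
Change of the 43 replication-dependent genes and 4 variants against vehicle (log2 fold change, horizontal axis), in panels for PLS-123, 10 μM ibrutinib and 1 μM ibrutinib, with genes coloured by class, lines for the 95% interval of the fit and filled points for called genes. The changes with PLS-123 range over the replication-dependent genes from -0.44 for H2BC21 to 1.60 for H2AC17, and those with 1 μM ibrutinib from -0.30 to 0.28.

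Of the 6 replication-dependent H1 genes, 0 rose and 1 fell with PLS-123, where 7.54% and 12.8% of all genes were called higher and lower. H1-2, a somatic linker histone gene of the chromosome 6 cluster, read 7.62, 7.68 and 7.54 after PLS-123, 8.15, 7.89 and 7.91 after 10 μM ibrutinib, 7.69, 7.92 and 7.85 after 1 μM ibrutinib and 8.07, 8.12 and 7.95 after vehicle. The PLS-123 arrays were all below the vehicle arrays, and H1-2 fell to 0.743-fold of vehicle (-0.43 ± 0.10, adjusted p = 0.00693), whereas the 10 μM ibrutinib change was -0.06 (adjusted p = 0.793). With the ACTB covariate the PLS-123 change of H1-2 was -0.28 and no longer passed (adjusted p = 0.216). The 2 treated groups differed by -0.37, which did not pass (adjusted p = 0.118). H1-4, another somatic linker gene with a mean under the median of all probe sets, was at 3.57, 3.79 and 3.79 after PLS-123, 3.84, 4.03 and 4.06 after 10 μM ibrutinib, 3.49, 3.79 and 3.6 after 1 μM ibrutinib and 3.83, 2.91 and 3.31 after vehicle. The vehicle arrays of H1-4 spread more widely than any other group, and the 10 μM ibrutinib arrays lay just above them. Its rise passed with 10 μM ibrutinib (0.63 ± 0.18, adjusted p = 0.0363) and not with PLS-123 (0.37, adjusted p = 0.19). The other 4 H1 genes, H1-1, H1-3, H1-5 and the testis gene H1-6, had changes of 0.03 to 0.10 with PLS-123, and the germ-line genes H1-7 and H1-8 had 0.05 and -0.29, none of which passed.

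Of the replication-independent variants, read by their brightest probe sets, only H1-10 was called. Of all genes, 12.8% were called lower with PLS-123 and 5.82% with 10 μM ibrutinib. The median over the 4 variants was -0.05 with PLS-123, -0.11 with 10 μM ibrutinib and -0.04 with 1 μM ibrutinib. H1-10 read 6.92, 7.11 and 7.31 after PLS-123, 7.16, 7.28 and 7.28 after 10 μM ibrutinib, 7.67, 7.88 and 7.93 after 1 μM ibrutinib and 8.12, 7.93 and 7.98 after vehicle. The PLS-123 and 10 μM ibrutinib arrays were the 6 lowest, with a fall to 0.539-fold of vehicle with PLS-123 (-0.89 ± 0.11, adjusted p = 6.41e-05) and to 0.587-fold with 10 μM ibrutinib (-0.77, adjusted p = 0.000286). The antisense RNA H1-10-AS1, read by a probe set of its own, had changes of 0.13 and 0.05 that did not pass.

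H2AZ1, which encodes the main H2A.Z isoform, read 12.97, 12.90 and 12.92 after PLS-123, 12.80, 12.73 and 12.72 after 10 μM ibrutinib, 13.05, 12.90 and 12.92 after 1 μM ibrutinib and 12.93, 12.80 and 12.90 after vehicle. The PLS-123 arrays of H2AZ1 overlapped those of vehicle, with a change of 0.05 and a 95% interval of -0.11 to 0.22 (adjusted p = 0.715). H2AZ2 was at 11.25, 11.29 and 11.24 after PLS-123, 11.26, 11.30 and 11.37 after 10 μM ibrutinib, 11.23, 11.37 and 11.34 after 1 μM ibrutinib and 11.37, 11.42 and 11.43 after vehicle, a change of -0.15 with PLS-123 and an interval of -0.31 to 0.01 (adjusted p = 0.219). A dimmer H2AZ2 probe set gave a rise of 0.55 with PLS-123 (adjusted p = 0.0138) and 0.24 with 10 μM ibrutinib (adjusted p = 0.365), so the direction for this gene turned with the probe set read. H3-3A, 1 of the genes of histone H3.3, read 7.09, 6.80 and 7.08 after PLS-123, 7.10, 7.20 and 7.01 after 10 μM ibrutinib, 6.99, 6.87 and 6.89 after 1 μM ibrutinib and 6.80, 6.92 and 6.96 after vehicle. All groups of H3-3A but the 10 μM ibrutinib one overlapped vehicle, and the PLS-123 change was 0.10 with a 95% interval of -0.11 to 0.30 (adjusted p = 0.57). These intervals lie below the rises of H2AC17, H2AC8, H2BC3, H3C2 and H4C1, but no test of variants against clustered genes was run.

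**Figure D3:**
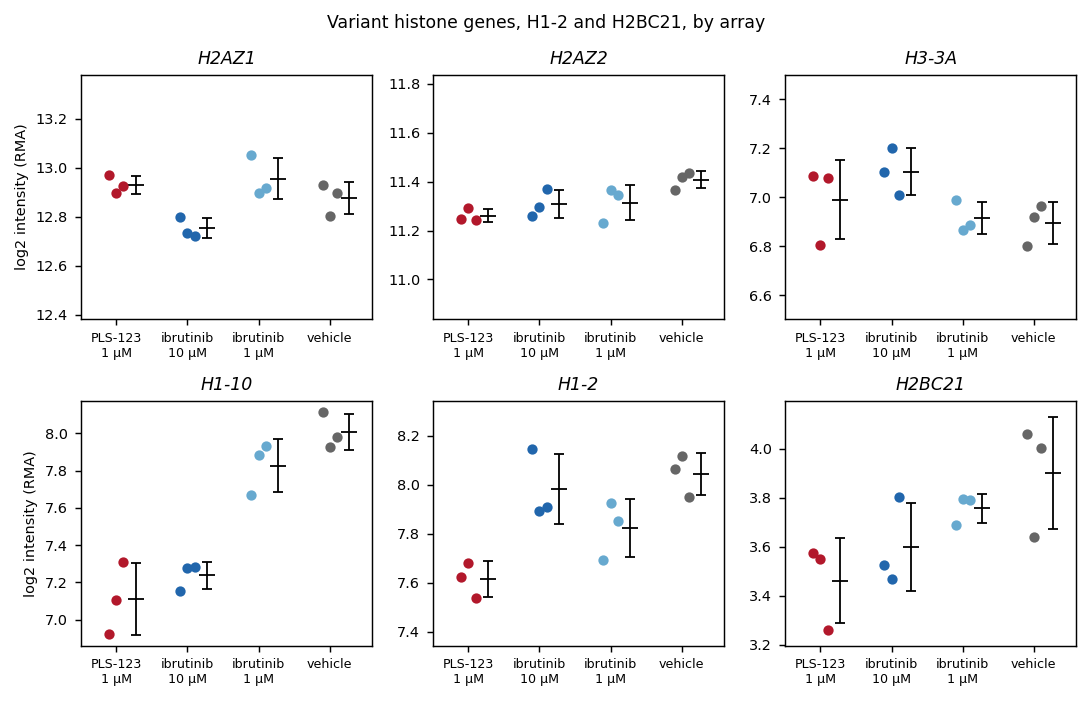
Level of the 4 replication-independent variants and of the lower genes H1-2 and H2BC21 (log2 RMA intensity, vertical axis, which does not start at 0), with a point for each array and a black mark with bars for the group mean and SD (n = 3). H1-10 lies between 6.92 and 7.31 on the PLS-123 and 10 μM ibrutinib arrays and between 7.67 and 8.12 on the others, while the groups of H2AZ1 and H3-3A lie close together.

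In the test of 1 μM PLS-123 against vehicle, 6 of the 19 calls ended when 1 array was left out. These were H2BC11 (without vehicle A or B or PLS-123 B or C, adjusted p = 0.0636 to 0.113), H2BC15 (without vehicle B or C or PLS-123 B or C, 0.0674 to 0.106), H2BC21 (without vehicle A or C or PLS-123 C, 0.103 to 0.137), H2BC9 (without vehicle A or PLS-123 A or B, 0.0689 to 0.112), H3C1 (without vehicle C or PLS-123 A or C, 0.0597 to 0.0858) and H3C3 (without any 1 of 10 arrays, all but 1 μM ibrutinib A and C, 0.051 to 0.159). With the ACTB 3′ to 5′ difference as a covariate, 11 genes were called, 9 higher and 2 lower. The calls of H1-2, H2AC16, H2BC9, H2BC11, H2BC15, H2BC21, H3C1, H3C3 and H3C8 ended (adjusted p = 0.062 to 0.39), and H2AC6 was called lower beside H1-10 (-0.56, adjusted p = 0.0257). In that order, the ended calls had changes of -0.28, 0.56, 0.60, -0.27, 0.61, -0.36, 0.40, 0.35 and 0.43 with the covariate. The ACTB difference was 2.80 to 3.17 on the PLS-123 arrays and 2.59 to 2.68 on the vehicle arrays, so covariate and treatment cannot be fully told apart. H2AC17, H2AC8 and H2BC3 passed in all 24 settings, and H1-10, H3C2 and H4C1 in the 23 that had a value for them. H1-10 and H3C2 had no plain _at probe set, and H4C1 was left out with the dim probe sets.

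At 10 μM, ibrutinib raised 16 of the 43 replication-dependent genes and lowered 0, where 6.71% and 5.82% of all genes were called higher and lower. The 16 were 4 H2A, 5 H2B, 2 H3 and 4 H4 genes and H1-4, and H1-10 was the 1 variant that fell. The median over the 43 genes was 0.19, with 28 positive and 15 negative, against -0.02 over all genes. PLS-123 and ibrutinib were compared with the same 3 vehicle arrays, so the counts of both are not independent. Leaving out 1 array ended the calls of H1-4 (without vehicle B or C or any 10 μM ibrutinib array, adjusted p = 0.0502 to 0.143), H2BC6 (without any array but 10 μM ibrutinib A, 0.0531 to 0.196), H2BC9 (without vehicle A or B or 10 μM ibrutinib B or C, 0.0578 to 0.139) and H3C1 (without vehicle C or 10 μM ibrutinib C, 0.0697 and 0.0709). With the ACTB covariate the calls of H1-4 (0.61, adjusted p = 0.0775) and H2BC6 (0.30, adjusted p = 0.0836) ended and H2AC6 was called lower.

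Ibrutinib at 1 μM, the dose matched to PLS-123, gave 0 called genes among the 53 members by limma and 0 among all 54613 probe sets (0% of all genes). The smallest adjusted p was 0.908 among the members and 0.282 among all probe sets, and the methods' t-test with the same adjustment also gave 0 among the members. At an unadjusted p under 0.05 there were 7 members (H1-2, H1-8, H2BC17, H3C11, H3C3 and H4C7 lower, H4C13 higher), and 2943 of all probe sets. The median over the 43 replication-dependent genes was -0.05, with 14 positive and 29 negative, against -0.01 over all genes. The 95% intervals of the 43 genes ran from -0.58 at the lowest to 0.66 at the highest, and reached 0.25 to either side of the estimate at the median. Smaller changes would mostly not be detectable with 3 arrays per group. The intervals are not adjusted over all probe sets, and larger changes also fell short of a call, such as -0.30 for H3C11 (adjusted p = 0.917 in limma).

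Set against 1 μM ibrutinib at the same dose and time, PLS-123 gave higher levels in 16 replication-dependent genes and in the pseudogene H2AC5P. The 16 were all core genes, which make up 37 of the 43. Levels were lower in H2BC11 and H1-10, where 5.78% and 10.1% of all genes were called higher and lower. This was 1 pair of compounds at 1 matched dose, with p-values adjusted over all probe sets. The difference was 1.56 for H2AC17 (adjusted p = 1.67e-06), 1.55 for H2BC3 (adjusted p = 1.57e-05), 1.27 for H2AC8 (adjusted p = 3.01e-05), 1.00 for H3C2 (adjusted p = 0.000171) and 0.83 for H4C1 (adjusted p = 0.000416). Of the H3 genes, 5 of 7 were called, among them H3C3 (0.58, adjusted p = 0.00151) and H3C11 (0.46, adjusted p = 0.0269), whose means were lowest after 1 μM ibrutinib. Like H3C11, H2BC17 (0.53, adjusted p = 0.00647) was called here and not against vehicle (0.27, adjusted p = 0.121). The difference of H1-10 was -0.71 (adjusted p = 0.000544), or 0.61-fold, and that of H1-2, -0.21, did not pass (adjusted p = 0.2). The median over the 43 genes was 0.29, against -0.02 over all genes.

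Leaving out 1 array ended 7 of these 19 calls. They were H2BC11 (without 1 μM ibrutinib B or C or PLS-123 B or C, adjusted p = 0.0874 to 0.125), H2BC15 (without 1 μM ibrutinib A or B or PLS-123 B or C, 0.077 to 0.124), H2BC9 (without 1 μM ibrutinib A or B or PLS-123 A or B, 0.0658 to 0.088), H3C1 (without PLS-123 C, 0.0629), H3C11 (without 1 μM ibrutinib A or B or PLS-123 B or C, 0.0636 to 0.119), H4C13 (without any array but vehicle C, 0.0521 to 0.176) and H2AC5P (without vehicle A, 10 μM ibrutinib A or any 1 μM ibrutinib or PLS-123 array, 0.0531 to 0.162). The ACTB covariate ended 9 calls, those of H2AC5P, H2BC5, H2BC9, H2BC11, H2BC15, H3C1, H3C8, H3C11 and H4C13 (adjusted p = 0.052 to 0.349), and added H2AC6 (lower) and H2BC14 (higher). The differences of the 9 with the covariate were 0.45, 0.38, 0.61, -0.31, 0.61, 0.44, 0.47, 0.34 and 0.22 in the same order. The test that the methods name, with Benjamini-Hochberg adjustment, called 3 of the 53 members in this comparison, H2AC14, H2AC17 and H2BC17. The share of all genes called by that test is not given here. The lower count of members therefore does not show a loss particular to histone genes.

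**Figure D4:**
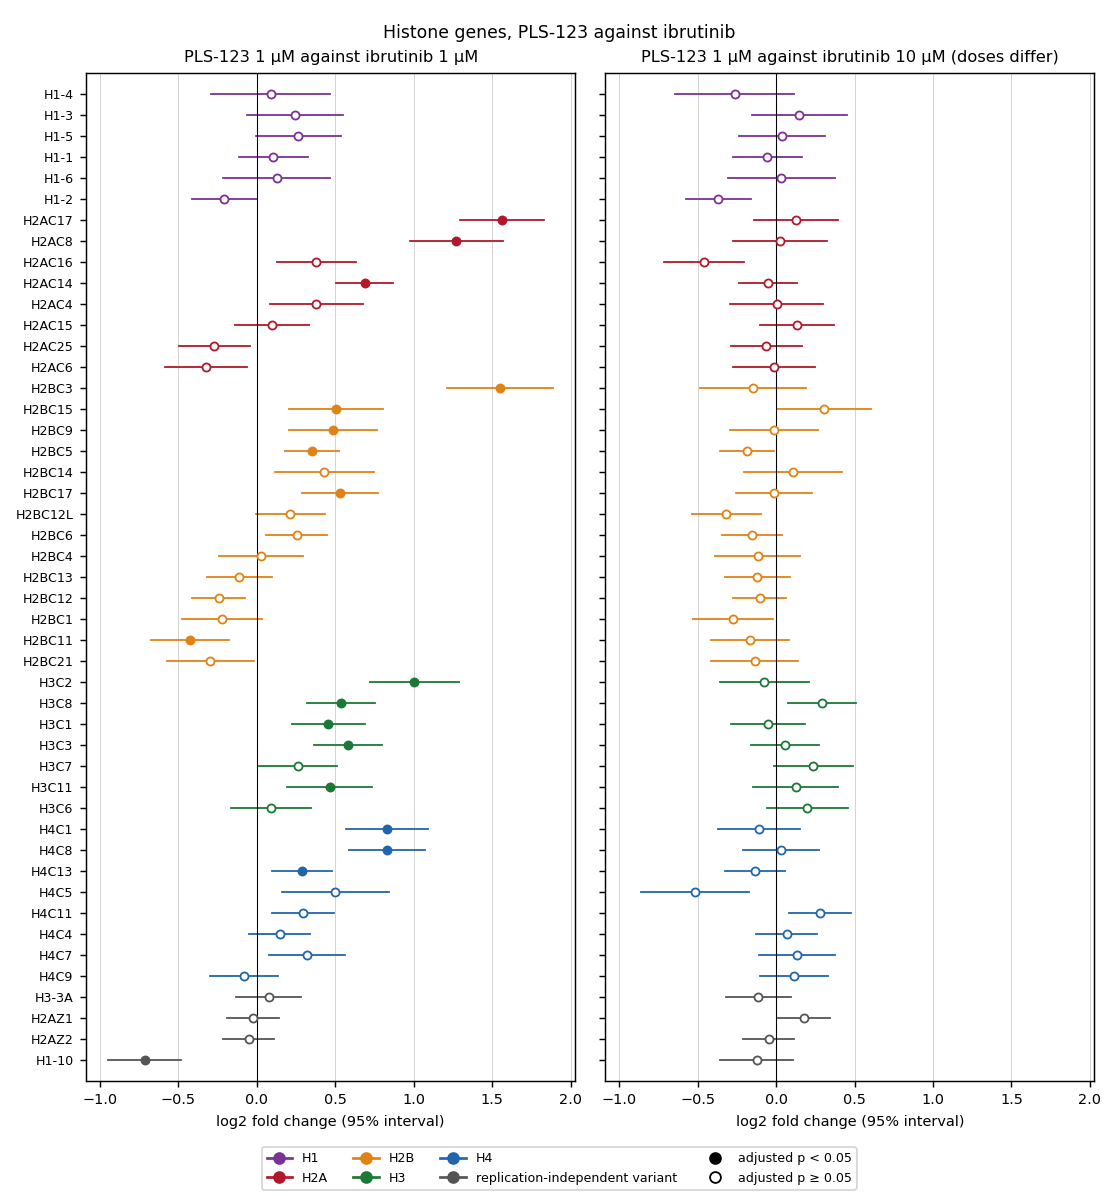
Difference of 1 μM PLS-123 from 1 μM ibrutinib (left) and from 10 μM ibrutinib (right, where doses differ) for the 43 replication-dependent genes and 4 variants (log2 fold change, horizontal axis), with lines for the 95% interval and filled points for called genes. The difference of H2AC17 is 1.56 in the left panel and 0.13 in the right one.

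PLS-123 at 1 μM and ibrutinib at 10 μM differ in dose, and their values are given side by side. Of the 53 members, 0 were called by limma between these groups, against 0.212% of all genes, with 10 members at an unadjusted p under 0.05 and 0 by the methods' t-test with adjustment. With an intensity trend in limma, H1-2 (lower with PLS-123) and H2AZ1 (higher) were called. The smallest adjusted p among the members was 0.115, and the differences of the 43 replication-dependent genes lay between -0.52 for H4C5 and 0.31 for H2BC15. The outermost bounds of their 95% intervals were -0.86 and 0.61, so that a p above the threshold does not show equal levels.

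Probe sets annotated to several histone genes, which the members leave out, were read as classes. Of 20 such probe sets of clustered genes, 11 were higher and 0 lower with PLS-123 (6.36% and 10.4% of all probe sets were), 11 and 0 with 10 μM ibrutinib (5.39% and 4.62%), and 0 changed with 1 μM ibrutinib. Their annotations overlap and they may read transcripts that the members' probe sets also read. The 20 are therefore not independent of each other or of the members. A probe set shared by 2 H2B genes had a change of 1.64 with PLS-123 (adjusted p = 1.78e-08), 1.81 with 10 μM ibrutinib (adjusted p = 7.2e-09) and -0.04 with 1 μM ibrutinib. One annotated to 11 H2A and H3 genes gave 1.29 and 1.20 with PLS-123 and 10 μM ibrutinib, and 1 of 10 H3 genes gave 0.73 and 0.91. Another of 10 H3 genes gave -0.01 and -0.16 and did not pass (adjusted p = 0.974 and 0.442). A probe set annotated to 14 H4 genes, with a mean of 13.23, gave 0.05 and 0.04 and did not pass, while another with the same annotation gave 0.50 and 0.99. Of 8 probe sets shared by genes or pseudogenes of H3.3, 1 was lower with PLS-123 (-0.31, adjusted p = 0.0177) and 0 were called with ibrutinib at either dose. Near-identical sequences among clustered histone genes mean that probes named for 1 gene may also bind others. Of the 53 members, 14 were read by probe sets with the endings _s_at or _x_at, which mark such sharing. A plain _at ending does not exclude it, since the probe sets above of 11 H2A and H3 genes and of 10 H3 genes have that ending. With the plain _at probe sets alone, 12 of the 41 members that have one were called with PLS-123 and 9 with 10 μM ibrutinib. These counts pool higher and lower calls, and the share of all genes called under this rule is not given here. For the variant H2AZ2 this rule reads the dimmer probe set that rose by 0.55 with PLS-123.

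On chromosome 6 the calls were spread along the histone clusters. In order along the chromosome, 65 histone genes and pseudogenes form 3 blocks separated by more than 250000 bases, and 42 of them were measured. In the first block, H2BC1 to H4C8, 10 of 26 measured genes were higher and 1 lower with PLS-123, with a median of 0.27. The second, H2BC11 to H4C9, had 0 of 3 higher and 1 lower (median -0.12), and the last, H4C10P to H2BC17, had 5 of 13 higher and 0 lower (median 0.27), beside the 7.54% and 12.8% of all genes called higher and lower. Neighbours did not always move alike. H2AC17 and H2BC17, which are transcribed away from each other, had changes of 1.60 and 0.27 with PLS-123 and 1.48 and 0.29 with 10 μM ibrutinib, and H2BC17 had a mean under the median of all probe sets. In the other divergent pairs with both genes measured, the changes with PLS-123 were 0.51 for H2AC14 and 0.30 for H2BC14, -0.01 for H2AC15 and 0.49 for H2BC15, and -0.32 for H2AC6 and 0.05 for H2BC4. Differences between genes of a pair were not tested, since their probe sets differ.

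**Figure D5:**
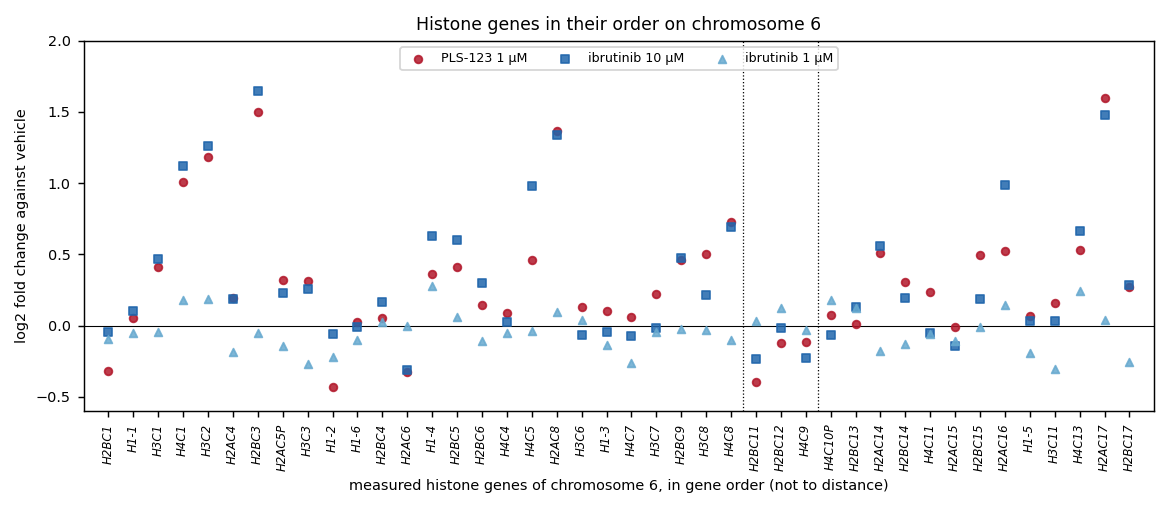
Change with 1 μM PLS-123, 10 μM ibrutinib or 1 μM ibrutinib against vehicle (log2 fold change, vertical axis) of the 42 measured histone genes and pseudogenes of chromosome 6, in their order along the chromosome (horizontal axis, rank and not distance), with dotted lines between blocks. Genes called higher occur in the outer blocks next to genes with smaller changes that were not called, such as H2AC17 (1.60) and its divergent neighbour H2BC17 (0.27).

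Genes that make and process histone mRNA moved in both directions, and the counts of this and the following lists stand beside 7.54% of all genes called higher and 12.8% lower with PLS-123, and 6.71% and 5.82% with 10 μM ibrutinib. Of 28 genes of histone gene transcription and 3′ end processing, 26 were measured, 4 higher and 6 lower with PLS-123 (median -0.08), and 3 higher and 2 lower with 10 μM ibrutinib. NPAT, the coactivator of clustered histone genes, rose by 0.28 with PLS-123 (adjusted p = 0.0327) and 0.29 with 10 μM ibrutinib (adjusted p = 0.0388). SLBP, which binds the stem-loop, had a change of 0.13 with PLS-123 that did not pass (adjusted p = 0.47). CSTF2, a cleavage factor subunit (-0.49, adjusted p = 0.00166), the S-phase transcription factor E2F1 (-0.49, adjusted p = 0.00209), ERI1, an exonuclease that trims histone mRNA (-0.44, adjusted p = 0.0029), and TUT7, a uridylyltransferase that takes part in its decay (-0.41, adjusted p = 0.00344), fell with PLS-123. Among histone chaperones and exchange factors, 33 of 34 were measured, 4 higher and 7 lower with PLS-123 (median -0.10). CABIN1, of the HIRA complex that deposits H3.3, rose by 0.75 (adjusted p = 5.56e-05), RBBP7, a histone-binding subunit of several complexes, rose by 0.40 (adjusted p = 0.00143), and DAXX, an H3.3 chaperone, and CHAF1A, the large subunit of the S-phase chaperone CAF-1, had -0.55 (adjusted p = 0.00037) and -0.45 (adjusted p = 0.00145).

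S-phase genes and inhibitors of the cell cycle were read beside the histone genes. Of 39 S-phase genes, 38 were measured, 1 higher and 8 lower with PLS-123 (median -0.03, against 7.54% higher and 12.8% lower of all genes), and 0 higher and 3 lower with 10 μM ibrutinib (6.71% and 5.82%). The changes of the S-phase genes with PLS-123 ran from -0.70 to 0.32. CCNE1, the cyclin of S-phase entry, fell by 0.70 (adjusted p = 4.51e-05) and TK1, a thymidine kinase of S phase, by 0.38 (adjusted p = 0.0125). Of 19 inhibitors of cyclin-dependent kinases and regulators of quiescence, 18 were measured, 3 higher and 2 lower with PLS-123 (median -0.02, range -0.66 to 1.60). CDKN1B, which encodes the inhibitor p27, rose by 1.60 with PLS-123 (adjusted p = 2.55e-06) and 1.14 with 10 μM ibrutinib (adjusted p = 7.33e-05), and CDKN1A, which encodes p21, had -0.04 with PLS-123 (adjusted p = 0.87). Among 8 measured histone genes outside the naming rule, 1 fell with PLS-123, CENPA, the centromeric H3 (-0.31, adjusted p = 0.0406), and H2AX had 0.03 (adjusted p = 0.873). With 1 μM ibrutinib, 0 genes of these lists were called.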

How the data were processed

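The authors deposited RMA intensities on a linear scale for 12 GeneChip Human Genome U133 Plus 2.0 arrays (biotin-labelled cRNA from total RNA), 3 per group; the RMA version is not given in the sources used here. The design had allowed for deposited log2 values; the intensities were linear, so log2 was taken with nothing added. The number of arrays limits the precision. After 62 control probe sets were set aside, 54613 probe sets were fitted with 1 mean per group over all 12 arrays (8 residual degrees of freedom) in limma 3.58.1 under R 4.3.3, two-sided, with Benjamini-Hochberg adjustment within each comparison and calls at an adjusted p under 0.05. The fit was also run on simulated arrays with independent noise for each probe set. These hold no differences in RNA quality or between whole arrays, so they do not test how the fit handles such differences. Probe sets were named from the platform annotation (41091 with 1 gene, 1801 with several, 11721 with none), and all 53 member symbols matched RefSeq. Members and lists were chosen with earlier results of these data known. Values per array are given for the variants and for up to 5 members of each class with the smallest adjusted p among those called with PLS-123, or next with 10 μM ibrutinib, or between the compounds at 1 μM; from each gene list up to 4 called genes with the smallest adjusted p were eligible, beside genes of the list fixed by name. Tables were handled in Python 3.11.15. Alternatives were other scaling, background filters, probe set rules, thresholds, the t-test that the methods name, an ACTB 3′ to 5′ covariate, a block for the sample letter and leaving out each array.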

Additional observations from a re-analysis of the deposited data

How the results depend on the processing

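With 1 μM PLS-123, 19 genes were called against vehicle, 11 with the ACTB covariate, 12 with plain _at probe sets and 7 at a threshold of 1.5-fold and an unadjusted p under 0.05. Against vehicle, the PLS-123 calls of H2BC9, H2BC11, H2BC15, H2BC21, H3C1, H3C3 and H3C8 ended with the adjusted t-test. With 10 μM ibrutinib the 17 calls became 10 by the methods' t-test with adjustment and 9 with plain _at probe sets. The share of all genes called under each alternative is not given here. A lower count of members therefore does not show a loss particular to histone genes. Between PLS-123 and ibrutinib at 1 μM, 19 became 3 by that t-test, 12 with the covariate, 12 with plain _at probe sets, 12 at an adjusted p under 0.01 and 8 at that fold threshold, and between PLS-123 and 10 μM ibrutinib 0 became 2 with an intensity trend (H1-2 lower and H2AZ1 higher) and 1 without dim probe sets (H1-2).

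The replication-dependent median of 0.19 with PLS-123 was 0.23 after quantile scaling and without dim probe sets, 0.26 with the covariate and 0.13 with plain _at probe sets, where that of 10 μM ibrutinib was 0.11, and the difference of 0.29 at 1 μM was 0.35 without dim probe sets. The median of the 4 variants changed sign with the mean over probe sets, and that of H2AZ1 and H2AZ2, the 2 with plain _at probe sets, was positive with those: 0.094 and 0.30 with PLS-123 (-0.05 with the brightest probe set), 0.0008 and 0.055 with 10 μM ibrutinib (otherwise -0.11), 0.027 and 0.10 with 1 μM ibrutinib (otherwise -0.04), and 0.037 and 0.20 between the compounds at 1 μM (otherwise -0.04), where centring on normalization controls gave 0.0044. Between PLS-123 and 10 μM ibrutinib it was -0.08, and -0.026 after quantile scaling, -0.021 with the mean and 0.24 with plain _at probe sets. Of single genes, H2AZ2 turned to 0.55 with PLS-123 and H4C8 to -0.063 and, with 10 μM ibrutinib, -0.027, each with its plain _at probe set. The cause was not tested.

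Leaving out 1 array gave 15 to 19 calls with PLS-123, 13 to 16 with 10 μM ibrutinib, 0 throughout with 1 μM ibrutinib, 14 to 20 between the compounds at 1 μM and 0 throughout against 10 μM ibrutinib. The replication-dependent medians ran from 0.17 to 0.23, 0.13 to 0.19, -0.08 to -0.01, 0.26 to 0.32 and -0.071 to -0.014 in the same order, and the variant medians from -0.06 to -0.03, -0.13 to -0.10, -0.070 to -0.012, -0.05 to -0.03 and -0.099 to -0.034.

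With the sample letter as a replicate block, 19, 15, 0, 17 and 0 genes were called in that order. The letters share no stated origin, and arrays of 1 letter had residual correlations of -0.21 to 0.15.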
